A study of Mus musculus with 12 samples.

Results

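The data describe the early response of the uterus to estradiol (E2) in mice whose estrogen receptor alpha, the product of Esr1, is DNA binding deficient according to the series title. The comparison holds 6 of the 12 arrays of the series: 3 EAAE mice given saline (titled EAAE_Saline_2h) and 3 EAAE mice given E2 (titled EAAE_estradiol_2h), chosen by title. The other 6 arrays, 3 of wild-type (WT) mice given saline and 3 of WT mice given E2, served to estimate the spread and to compare the responses. EAAE is the only Esr1 genotype of the first 6 mice that the labels give; they do not say how the allele was made or which tissues carry it. All mice of the 4 groups were ovariectomized adult females of at least 10 weeks on a C57bl6/Jx129 background, left for 10 to 14 days so that ovarian hormone could clear. Each received 100 ul of saline or of E2, with no dose stated, and the uterus was frozen 2 h later. Each array held Cy3-labelled cRNA from 500 ng of total RNA of 1 uterus. Mice are numbered 1 to 3 within a group, as in the titles.

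Estrogen receptor alpha is a nuclear receptor that, once bound by estradiol, can attach to estrogen response elements in DNA, or reach genes through other DNA-bound factors, or act outside the nucleus on kinase signalling. In the rodent uterus estradiol first induces immediate early genes, blood vessel permeability and growth factors, and only later drives epithelial division. A receptor that cannot bind DNA separates genes that need that contact from genes that move without it, which is the question the comparison addresses.

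Array layout bears on every value below. The arrays sat on 3 slides of 4 positions, each slide with a scan of its own. All 3 EAAE E2 arrays lay at position 4 and no other array did, so position 4 and E2 treatment in EAAE cannot be told apart. The EAAE saline arrays lay at positions 2 and 3, and slide 3 held an EAAE E2 array and no EAAE saline array. Correlations were taken over the tested genes, with 1 probe per gene. The EAAE saline arrays correlated with each other at r of 0.989 to 0.9897 (3 pairs) and the EAAE E2 arrays at 0.9825 to 0.9862 (3 pairs). EAAE saline with EAAE E2 arrays gave 0.9786 to 0.9883 (9 pairs), against 0.9541 to 0.9626 between saline and E2 in WT (9 pairs). On the EAAE arrays 66.8 to 71.0% of the spots were well above background. The uterine transcripts Hoxa10, Hoxa11 and Emx2, which pattern the tract, Myh11 of smooth muscle and Krt18 of epithelium were well above background on all 6 EAAE arrays. Of 14 ovary markers, 8 did not pass the filter on dim probes. Esr1 itself lay at 3.22, 3.42 and 3.42 in EAAE saline and 3.26, 3.09 and 3.04 in EAAE E2, and the difference of -0.22 did not pass the test (adjusted p = 0.277). The Esr1 probe lies at chromosome 10, 5343241 to 5343300 (mm7, the build of the files). The labels describe changed DNA binding and no loss of the transcript, so its level checks the labels only in part.

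Levels are log2 of the processed intensity of a probe minus the 75th percentile of its array, so 0 marks a bright probe, and a difference of 1 is a 2-fold change. A gene was called where the limma test of E2 against saline gave an adjusted p under 0.05 over the 19304 genes tested. Errors are the standard error of the fit (SE) with 3 mice per group, or SD where stated.

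The proximal promoters of 4 genes from the main groups are shown because the receptor lacks DNA binding and the letters of known elements can be looked for there. Dio2 and Adamts1 rose in EAAE and in WT, Tbx18 rose in EAAE and fell in WT, and Id3 fell in both. The sequences are the 250 bases before the RefSeq start site (GRCm38.p6), 5′ to 3′, with matched element letters in capitals. They lie at chr12:90739039-90739288 (minus strand), chr16:85803114-85803363 (minus strand), chr9:87731261-87731510 (minus strand) and chr4:136143572-136143821 (plus strand).
Dio2: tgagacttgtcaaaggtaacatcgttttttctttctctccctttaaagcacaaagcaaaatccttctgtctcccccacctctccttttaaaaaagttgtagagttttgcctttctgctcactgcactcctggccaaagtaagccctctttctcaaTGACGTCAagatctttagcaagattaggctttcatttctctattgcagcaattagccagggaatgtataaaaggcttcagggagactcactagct
Adamts1: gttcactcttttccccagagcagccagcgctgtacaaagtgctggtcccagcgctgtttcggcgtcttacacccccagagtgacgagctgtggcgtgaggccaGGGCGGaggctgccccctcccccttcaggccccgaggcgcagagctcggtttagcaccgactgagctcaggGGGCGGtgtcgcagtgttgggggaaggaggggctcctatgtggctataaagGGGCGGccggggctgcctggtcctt
Tbx18: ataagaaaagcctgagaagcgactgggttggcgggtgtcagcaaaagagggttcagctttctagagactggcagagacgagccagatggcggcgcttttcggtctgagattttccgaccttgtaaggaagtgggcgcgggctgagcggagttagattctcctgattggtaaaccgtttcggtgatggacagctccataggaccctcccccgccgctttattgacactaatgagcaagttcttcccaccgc
Id3: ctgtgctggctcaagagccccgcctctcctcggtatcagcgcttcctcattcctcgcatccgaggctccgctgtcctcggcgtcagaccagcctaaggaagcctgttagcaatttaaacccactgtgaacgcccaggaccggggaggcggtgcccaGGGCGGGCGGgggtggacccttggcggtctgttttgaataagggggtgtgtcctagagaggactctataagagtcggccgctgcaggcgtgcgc
The capitals mark a CRE (TGACGTCA), the element of cAMP-responsive factors, in Dio2, and Sp1 boxes (GGGCGG), 3 in Adamts1 and 2 overlapping ones in Id3. Tbx18 held none of the letters searched in this stretch.

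The search covered both strands of the 300-base windows, from 250 bases before to 50 after the start site, for 6 letter patterns. A window was found for 170 of the 271 called genes (96 higher, 74 lower) and for 12115 of the tested genes. The full palindromic estrogen response element, both half-sites with 3 free bases between them, was in 0 of the 96 windows of genes called higher, 0 of the 74 of genes called lower and 3 of all 12115 (0.0248%), so a window of this length rarely holds it whatever the gene. The CRE letters were in 5 of 96 windows of genes called higher (5.21%) and 2 of 74 lower (2.7%), against 2.91% of all. The AP-1 letters TGANTCA were in 6.25 and 5.41%, against 5.44% of all. The E-box CACGTG, read by clock and Myc-family factors, was in 14.6 and 6.76%, against 9.67%. The Sp1 box was in 49.0 and 74.3%, against 59.9%. The half-site TGTTCT of glucocorticoid and progesterone receptors was in 12.5 and 10.8%, against 13% of all. A match describes letters only, and a missing match says nothing about a factor.

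In the EAAE uterus 133 genes rose and 138 fell 2 h after E2. These are 0.689% and 0.715% of the genes tested, and 1.4% in either direction. The same test called 49.4% in WT (19.5% higher, 29.9% lower). The median size of the 271 called changes was 0.79 on the log2 scale. At least a 2-fold change was seen in 47 of the genes that rose and 29 of those that fell. Over all tested genes the EAAE difference had a median of 0.03, and 54.7% were positive. With arrays centred on their median the split of calls was 128 higher and 75 lower, a higher share of 63.1%. The groups did not overlap in any of the 271, and of all genes they lay apart in 9.9% upward and 8.5% downward, 18.4% together. At an unadjusted p under 0.05 there were 3104 genes (16.1%). These shares over all genes are the ones to set beside the counts and percentages given for lists below. The lists and some of their members were chosen with earlier results of these data known, so such counts do not test a list. Both EAAE groups were well above background on all their arrays for 244 of the 271. Fitted without the WT arrays, the same comparison called 5 higher and 2 lower genes.

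Hyaluronan is a long sugar polymer that swells the extracellular matrix and is made at the cell surface by hyaluronan synthases. Has2, the main such enzyme of mesenchyme, lay at -1.91, -2.07 and -1.72 in the EAAE saline mice and at 1.32, 1.57 and 0.70 in the EAAE E2 mice. Every E2 mouse was above every saline mouse, with EAAE E2 3 the lowest of the treated. Has2 rose 8.55-fold (3.1 on the log2 scale, SE 0.20, adjusted p = 1.54e-04), and its other probe gave 2.67. The probe lies at chromosome 15, 56729040 to 56729099 (mm7). In WT, Has2 went the other way, from -0.98, -0.99 and -1.15 in saline to -3.17, -3.51 and -3.18 after E2. It fell there by 2.25 (adjusted p = 9.88e-06), and the responses differed by 5.34 (SE 0.28, adjusted p = 1.20e-06). Cemip, which binds and depolymerizes hyaluronan, also rose in EAAE, from -1.52, -1.94 and -1.41 to -0.12, -0.24 and -0.25 (difference 1.42, SE 0.19, adjusted p = 0.0091). In WT it fell by 1.15 (adjusted p = 6.26e-04). These were the 2 called members of 20 tested hyaluronan genes, none of which was called lower, and the list's median difference was 0.23 against 0.03 over all genes.

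**Figure D1:**
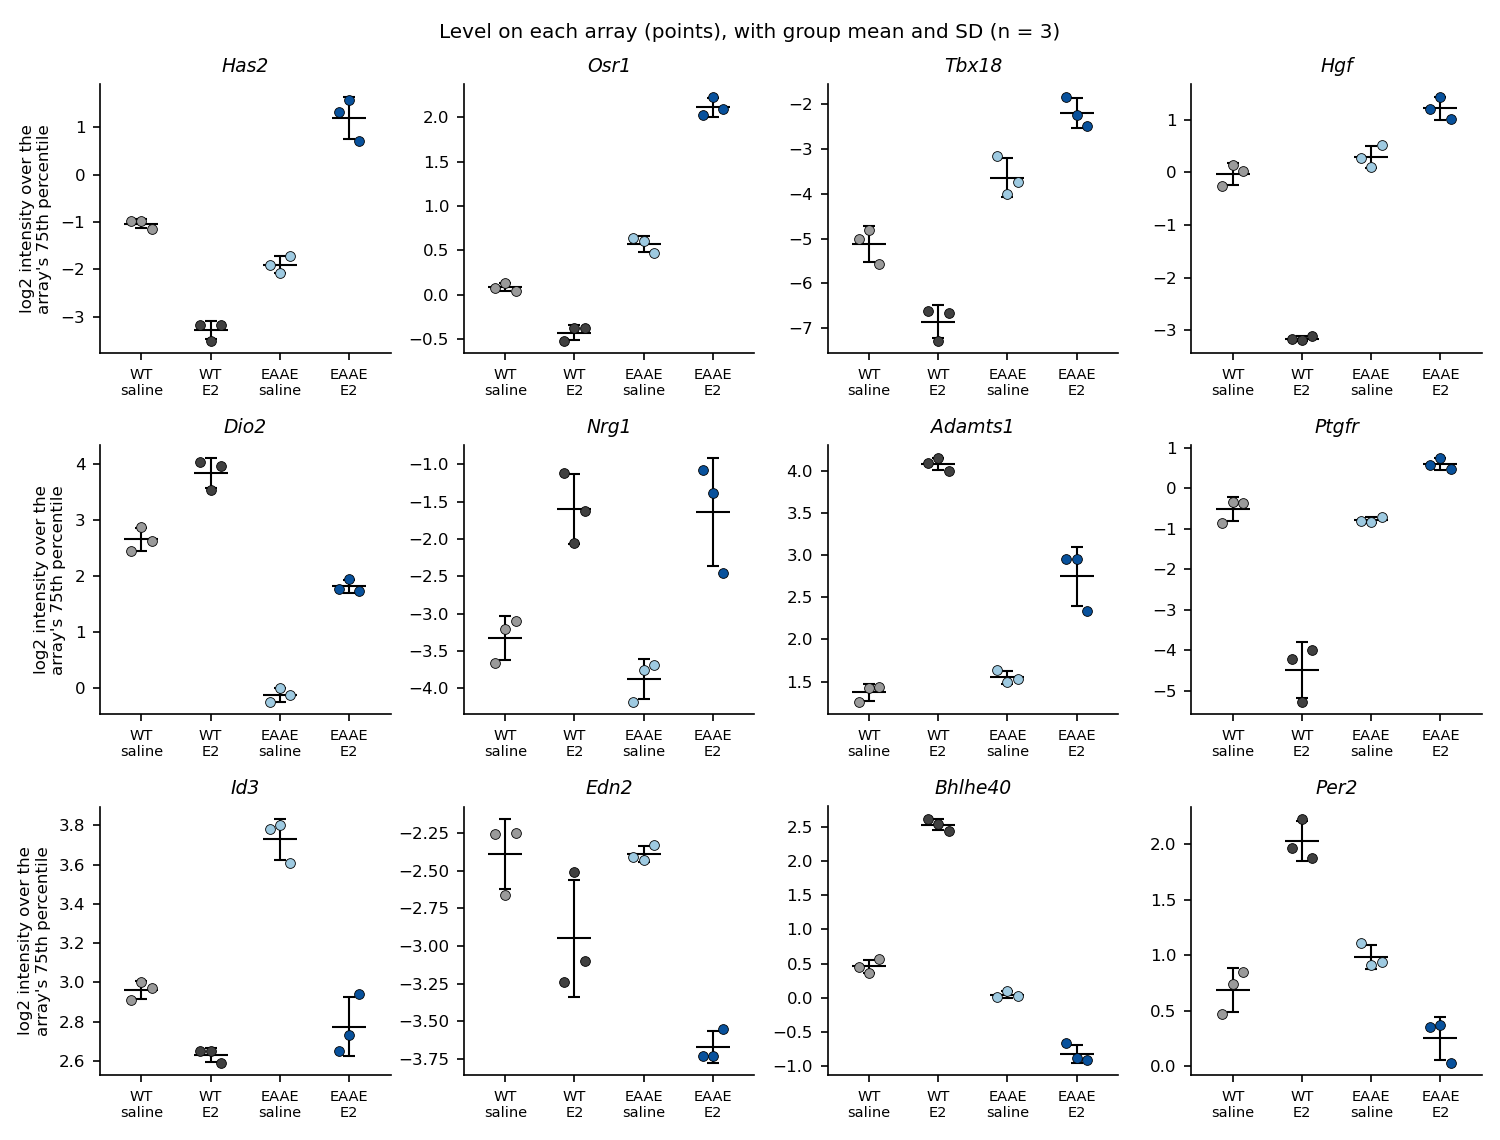
Level of 12 genes on each of the 12 arrays (vertical axis, log2 intensity over the array's 75th percentile; points are mice, the horizontal bar and whiskers the mean and SD of 3 mice; groups on the horizontal axis). Has2, Osr1, Tbx18, Hgf and Ptgfr lie higher after E2 in EAAE and lower after E2 in WT, Dio2, Nrg1 and Adamts1 lie higher after E2 in both, and Bhlhe40 and Per2 are lower in EAAE and higher in WT.

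Adamts1, Adamts9 and Adamts6, matrix proteases of a family that cuts proteoglycans, also rose. Adamts1, a versican-cleaving protease, lay at 1.64, 1.49 and 1.53 in EAAE saline and 2.95, 2.95 and 2.34 in EAAE E2. All E2 mice were higher, the EAAE E2 3 mouse least so. It rose by 1.20 (SE 0.15, adjusted p = 0.00626), and its other probe gave 1.20. In WT it rose by 2.71, and the difference between responses, -1.51, passed the test (adjusted p = 4.15e-04). Adamts9 rose by 0.83 (adjusted p = 0.0367) and Adamts6 by 1.13 (adjusted p = 0.0431). The 2 other probes of Adamts9 gave 0.28 to 0.78. Of 30 tested Adamts and matrix metalloproteinase genes with their inhibitors, 3 were called higher and 0 lower, with a median of 0.14. The laminin chain Lama1, a part of basement membrane, rose by 1.40 (SE 0.18, adjusted p = 0.00663). The collagen chain Col22a1 rose by 0.66 (adjusted p = 0.0414). Among 41 matrix and small proteoglycan genes 0 were called by limma, with 7 higher and 2 lower at an unadjusted p under 0.05. They included Ccn2, a matricellular protein, at 0.64 (adjusted p = 0.0775) and tenascin Tnxb at 0.70 (adjusted p = 0.108).

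Transcription factors that pattern embryonic mesenchyme and the Mullerian tract had 8 of 48 tested members called higher and 0 lower. Over all genes 0.689% were called higher and 0.715% lower. The list was chosen with earlier results of these data known, so its count does not test it. Osr1, a zinc finger factor of intermediate mesoderm, lay at 0.64, 0.60 and 0.47 in saline and 2.02, 2.23 and 2.09 after E2, with little spread in either group. It rose by 1.54 (SE 0.08, adjusted p = 7.44e-05), with 1.52 from its other probe (chromosome 12, 9605902 to 9605961, mm7, for the first). Tbx18, a T-box factor of ureter and muscle precursors, went from -3.17, -4.01 and -3.75 to -1.84, -2.25 and -2.50. The groups were apart, and Tbx18 rose by 1.44 (SE 0.28, adjusted p = 0.0414). Sox11, from -3.33, -2.92 and -3.38 to -2.30, -2.18 and -2.59, and Sox4, from 1.16, 1.22 and 1.16 to 2.06, 2.14 and 1.78, are related factors of progenitor cells. They rose by 0.85 (adjusted p = 0.0454) and 0.81 (adjusted p = 0.0296). Hand2, which restrains epithelial growth from the stroma under progesterone, lay at -0.65, -0.57 and -0.55 and then 0.02, 0.30 and 0.00 (difference 0.69, adjusted p = 0.0371). Sox17 rose by 0.64, Osr2 by 0.63 and Hoxd9 by 0.59 (adjusted p = 0.0454, 0.0371 and 0.0454). The median of the whole list was 0.07. The count was 7 without EAAE E2 3, 4 without WT saline 1, WT saline 3 or WT E2 2, 3 without WT saline 2 or WT E2 3, and 2 without EAAE saline 1. It was 1, Osr1, without EAAE saline 2, EAAE saline 3, EAAE E2 1, EAAE E2 2 or WT E2 1. The direction of the 8 could not change in these fits, since their EAAE groups lay apart.

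All 8 were called lower after E2 in WT, and all 8 responses differed between genotypes. The response differences had to pass, since all 8 were called in opposite directions. Tbx18 was well above background on no WT E2 array, so its WT values are measured on one side only. The WT differences were -0.51 for Osr1, -1.73 for Tbx18, -2.50 for Sox4, -2.38 for Sox11, -1.17 for Hand2, -1.24 for Osr2, -0.84 for Sox17 and -0.45 for Hoxd9. The response differences ran from 1.04 for Hoxd9 (adjusted p = 0.00106) to 3.17 for Tbx18, 3.23 for Sox11 and 3.31 for Sox4 (adjusted p = 2.93e-06). In WT 9 of the 48 were called higher and 23 lower. Over those 23 the median difference was -0.84 in WT and 0.36 in EAAE. Endometrial stroma markers summed to 8.76, 8.80 and 8.78 in EAAE saline and 9.08, 8.86 and 8.99 in EAAE E2, and 1 of 16, Hand2, was called. Their part in these rises was not tested. In whole tissue fewer cells of a type and less RNA per cell cannot be told apart.

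**Figure D2:**
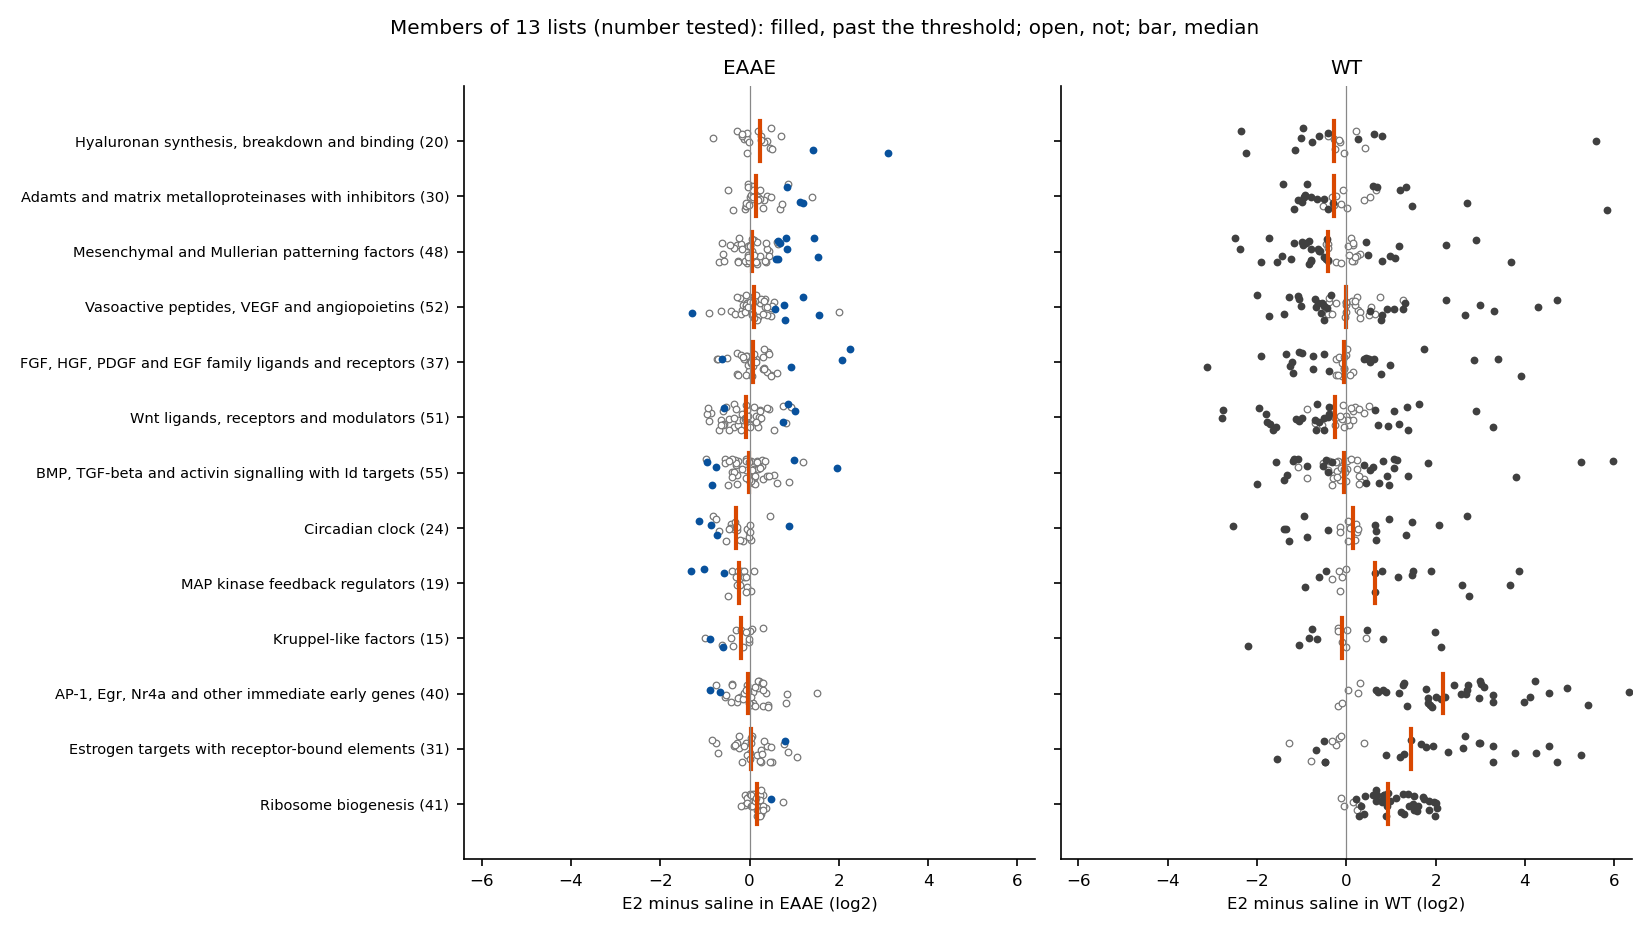
Difference between E2 and saline (horizontal axes, log2) for every tested member of 13 gene lists (vertical axis, number tested in brackets), in EAAE on the left and in WT on the right. Filled points passed the test, open points did not, and the orange bar is the list's median; in EAAE most points lie near 0, and the mesenchymal factors hold 8 filled points, all above 0.

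Growth factors and their regulators were next. Nrg1, a neuregulin ligand of ErbB receptors, lay at -4.18, -3.76 and -3.69 in EAAE saline and -1.07, -1.38 and -2.45 in EAAE E2. The lowest treated mouse, EAAE E2 3, was still above all saline mice. It rose by 2.24 (SE 0.35, adjusted p = 0.0172), with 1.05 to 1.65 from 4 other probes. In WT it rose by 1.73 (adjusted p = 0.00214). The response difference did not pass the test (0.51, 95% interval -0.58 to 1.61). Ndnf, a secreted factor that acts on neurons and vessels, went from -3.76, -3.98 and -3.31 to -1.30, -1.31 and -2.22 and rose by 2.07 (SE 0.25, adjusted p = 0.00587). Its WT rise was 2.85, and the response difference was -0.78 (interval -1.55 to 0.00). Hgf, the stromal ligand of the Met receptor, behaved otherwise: 0.27, 0.10 and 0.52 in EAAE saline, 1.21, 1.44 and 1.01 in EAAE E2. Hgf rose by 0.92 in EAAE (SE 0.15, adjusted p = 0.0184) and fell by 3.13 in WT. Its 3 other probes gave 0.27 to 1.05 in EAAE. The responses differed by 4.05 (adjusted p = 1.14e-06). The EGF receptor ligand Tgfa fell by 0.61 (adjusted p = 0.0169) where WT rose by 0.48. Of 37 tested FGF, HGF, PDGF and EGF family members these were the 3 called higher and the 1 called lower. Of 19 insulin-like growth factor axis genes 0 were called by limma, with 3 higher and 3 lower at an unadjusted p under 0.05. Igf1, the stromal mitogen of the epithelium, read 0.43, 0.41 and 0.06 in saline and 2.00, 0.92 and 1.17 after E2. These groups did not overlap, and the difference of 1.07 had an adjusted p of 0.0859, next to 1.21 in WT (difference between responses -0.15, interval -0.99 to 0.69).

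Wnt pathway calls were 3 higher and 1 lower of 51 tested, with a median of -0.08. The ligand Wnt2 went from -1.52, -1.27 and -0.75 to -0.32, 0.00 and -0.17 and rose by 1.02 (adjusted p = 0.0367). The secreted inhibitors Sfrp4 and Dkk2 rose by 0.87 and 0.76 (adjusted p = 0.0203 and 0.0164), while both fell in WT, by 0.65 and 1.77. The nuclear effector Tcf7 fell by 0.57 (adjusted p = 0.0414). Wnt7a, the epithelial ligand, read -0.01, 0.30 and 0.10 in saline and -0.86, -0.85 and -0.49 after E2, a difference of -0.86 that missed the threshold (adjusted p = 0.0835). In the Notch list the receptor Notch1 was the 1 call of 22, lower by 0.68 (adjusted p = 0.0402).

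Bone morphogenetic protein (BMP) signalling acts through Smad factors and induces the Id genes, which block basic helix-loop-helix factors. Id3 lay at 3.78, 3.80 and 3.61 in EAAE saline and 2.65, 2.73 and 2.94 in EAAE E2. All treated mice were lower, and Id3 fell by 0.96 (SE 0.09, adjusted p = 0.00165). Id1 went from 3.61, 3.68 and 3.88 to 2.75, 2.85 and 3.03 and fell by 0.85 (adjusted p = 0.0315), with -0.93 from its other probe. Smad6, an inhibitory Smad that BMP signalling induces, fell by 0.75 (adjusted p = 0.0169), from 0.50, 0.56 and 0.44 to -0.16, -0.11 and -0.48. Noggin (Nog), a secreted BMP antagonist, moved the opposite way, from -2.56, -2.57 and -2.45 to -1.60, -1.12 and -1.88. It rose by 1.0 (adjusted p = 0.0367), close to its WT rise of 1.13 (difference -0.13, interval -0.72 to 0.46). In WT, Id1 and Smad6 rose by 0.96 and 0.59, and Id3 fell by 0.33. All 3 responses differed between genotypes, by -1.81, -1.34 and -0.63 (adjusted p = 1.65e-04, 1.82e-04 and 0.00377). The list's 55 tested members held 2 called higher and 3 called lower. The other higher call, Gdf6, was well above background on no EAAE array and has no measured fold.

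Receptors and peptides of vessels and muscle held 5 called higher and 1 lower of 52 tested, with a median of 0.11. The vasopressin receptor Avpr1a, which drives smooth muscle contraction, lay at -0.82, -0.81 and -0.85 in saline and 0.60, 0.13 and 0.38 after E2. The saline mice lay close together and all E2 mice were higher. It rose by 1.20 (SE 0.13, adjusted p = 0.00268) and fell by 1.28 in WT. Relaxin (Rln1), a hormone that loosens reproductive tract matrix, rose by 1.56 (adjusted p = 0.0387). The endothelin receptor Ednra rose by 0.78 (adjusted p = 0.0345). Ramp2, the adrenomedullin receptor partner of endothelium, went from 3.45, 3.61 and 3.54 to 4.31, 4.37 and 4.32 and rose by 0.80 (adjusted p = 0.00523), against a WT fall of 0.51. The VEGF co-receptor Nrp1 rose by 0.58 (adjusted p = 0.0447). The ligand Edn2 fell. It lay at -2.41, -2.43 and -2.33 in saline and -3.73, -3.73 and -3.55 after E2, with no overlap, a fall of 1.28 (SE 0.18, adjusted p = 0.0117), and fell by 0.56 in WT (adjusted p = 0.0242). Endothelium markers summed to 6.62, 6.77 and 6.71 in EAAE saline and 7.07, 6.98 and 6.95 in EAAE E2. Of those 20 markers 1, Sox17, was called, and 80.0% had a positive difference. Their part in the vessel results was not tested.

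Ptgfr, Pln and Rgs2 rose in EAAE and fell in WT. Ptgfr, the prostaglandin F receptor, lay at -0.82, -0.83 and -0.70 in EAAE saline and 0.58, 0.75 and 0.47 in EAAE E2. It rose by 1.38 (SE 0.28, adjusted p = 0.0453) and fell by 3.97 in WT, from -0.86, -0.34 and -0.36 to -4.21, -5.27 and -3.98. The responses differed by 5.35 (adjusted p = 9.09e-06), with no overlap between any E2 group and its saline group. Phospholamban (Pln), which restrains the calcium pump of muscle, went from -1.51, -1.70 and -1.55 to -0.43, -0.45 and -0.02, a rise of 1.29 (adjusted p = 0.00587) against a WT fall of 1.92. Rgs2, which ends signalling by Gq-coupled receptors, went from 5.76, 5.67 and 5.83 to 6.28, 6.64 and 6.68, a rise of 0.78 (adjusted p = 0.0258) against a WT fall of 2.49. Ptgfr was the 1 call of 26 prostaglandin genes, Pln the 1 of 15 smooth muscle markers and Rgs2 the 1 of 19 Rgs genes. The smooth muscle markers summed to 9.10, 9.09 and 8.99 in saline and 8.48, 8.72 and 9.22 after E2, and 13.3% of them had a positive difference. The scavenging chemokine receptor Ackr3 rose by 1.37 (adjusted p = 0.0184) and its ligand Cxcl12 by 0.52 (adjusted p = 0.0491). In WT, Ackr3 rose by 2.61, and Cxcl12 read 0.07 (adjusted p = 0.626). The other probe of Cxcl12 gave 0.14 in EAAE. The cytokine Clcf1 fell by 0.55. The cytokine and chemokine list held 3 called higher and 1 lower of 55. Its remaining higher call, the decoy receptor Il1r2, was well above background on 2 EAAE E2 arrays and on no saline array, and was at least 1.4-fold higher.

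Dio2, the deiodinase that activates thyroid hormone inside cells, was the 1 call among 35 steroid and thyroid hormone receptor and activation genes. It lay at -0.24, 0.00 and -0.13 in EAAE saline and 1.77, 1.94 and 1.73 in EAAE E2. Both groups were tight, and Dio2 rose 3.83-fold (1.94, SE 0.15, adjusted p = 5.48e-04). The WT rise was 1.19, from 2.45, 2.87 and 2.63 to 4.03, 3.53 and 3.95, so the EAAE mice after E2 stayed under the WT mice given saline. The EAAE response was larger by 0.75 (adjusted p = 0.0185). Its promoter, printed above, holds the CRE letters. In the retinoid list of 19, Aldh1a2, which makes retinoic acid, rose by 0.55 (adjusted p = 0.0368). Crabp2, which carries retinoic acid to its receptors, was well above background on 1 EAAE saline array and on no E2 array, and was at least 1.2-fold lower (adjusted p = 0.0454). The noradrenaline transporter Slc6a2, a protein of sympathetic nerve endings, went from -0.02, 0.48 and 0.33 to 1.91, 1.72 and 1.76 and rose by 1.53 (adjusted p = 0.00506), beside a WT rise of 1.77 (difference -0.24, interval -0.79 to 0.30). Nerve and Schwann cell markers overlapped between the EAAE groups (4.34 to 4.60 in saline, 4.40 to 4.55 after E2).

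Among 30 progesterone and glucocorticoid receptor targets 3 were called higher and 1 lower, with a median of 0.00. The metallothioneins Mt1 and Mt2, which bind zinc and respond to glucocorticoids and metals, rose together. Mt1 went from 3.99, 3.91 and 3.73 to 4.52, 4.73 and 4.71 and Mt2 from 6.14, 5.96 and 5.94 to 6.67, 6.74 and 6.75. The rises were 0.77 and 0.71 (adjusted p = 0.0124 for both), and in WT the values were -0.20 and -0.06, neither past the threshold. The 2 genes are close copies, so their probes may share signal. The remaining higher call was Hand2, and the lower one was Cdkn1c, an inhibitor of the cell cycle.

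Transcripts that fell included parts of the circadian clock, where 3 of 24 tested members were called lower and 1 higher. Bhlhe40, a repressor in the clock, lay at 0.01, 0.10 and 0.02 in saline and -0.67, -0.88 and -0.92 after E2. The groups were well separated and Bhlhe40 fell by 0.87 (SE 0.09, adjusted p = 0.00268). Per2, a core repressor, went from 1.11, 0.91 and 0.94 to 0.35, 0.37 and 0.03, a fall of 0.74 (adjusted p = 0.0367), with -0.66 from its other probe. Usp2, a deubiquitinase with daily rhythm, went from 0.66, 0.78 and 0.75 to -0.72, -0.33 and -0.15, a fall of 1.13 (adjusted p = 0.00626). In WT, Bhlhe40 and Per2 rose by 2.08 and 1.34, and Usp2 read 0.03. The orphan receptor Rorb rose in EAAE by 0.88 (adjusted p = 0.0462) and fell in WT by 2.54. The list's median was -0.30, 20.8% of members had a positive difference against 54.7% of all genes, and the groups lay apart in 12 members downward and 1 upward. Over all genes they lay apart in 8.5% downward and 9.9% upward. This list too was chosen with earlier results known. The labels give no time of day.

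Feedback regulators of MAP kinases, which growth factor signalling normally induces, held 3 called lower and 0 higher of 19, and 10.5% had a positive difference. Over all genes 0.715% were called lower and 54.7% had a positive difference. This list too was chosen with earlier results known. Dusp10, a phosphatase of stress kinases, fell by 1.03 (from -0.79, -1.20 and -0.71 to -2.15, -1.90 and -1.76, adjusted p = 0.0197). Dusp7, a phosphatase of ERK, fell by 0.57 (adjusted p = 0.0454). Spry4, an ERK pathway inhibitor, was well above background on 2 EAAE saline arrays and on no E2 array, and was at least 1.1-fold lower (adjusted p = 0.0428). In WT, Spry4 was called higher, from no saline array above background to all 3 E2 arrays. In WT 11 of the 19 were called higher and 3 lower. Over those 11 the median was 1.5 in WT and -0.26 in EAAE, and all 11 responses differed.

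Immediate early genes are the first transcripts that hormones and growth factors induce. Of 40 tested, 35 were called higher and 0 lower in WT. In EAAE 0 were called higher and 2 lower. Klf10, a zinc finger repressor induced by TGF-beta, lay at 2.74, 2.78 and 2.74 in saline and 1.97, 1.62 and 2.02 after E2, a fall of 0.88 (SE 0.12, adjusted p = 0.0091). Ier5 fell by 0.67 (adjusted p = 0.0447). Both rose in WT, by 0.83 and 0.88. Fos read -4.02, -4.16 and -3.92 in EAAE saline and -2.82, -4.47 and -3.55 in EAAE E2. Its groups overlapped, with EAAE E2 1 the highest and EAAE E2 2 the lowest of the 6 mice, and the difference of 0.42 did not pass the test (adjusted p = 0.583), against 5.41 in WT. Over the 35 genes called in WT the median was 2.56 in WT and -0.04 in EAAE, with an EAAE range of -0.88 to 0.84, and 33 of the responses differed. Among 15 Kruppel-like factors Klf3 also fell, by 0.59 (adjusted p = 0.0399). Klf4, an epithelial factor, read -0.15 in EAAE (adjusted p = 0.436) against 2.12 in WT, and Klf15, a progesterone- and glucocorticoid-responsive factor, -0.38 (adjusted p = 0.484) against -2.20.

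Genes with receptor-bound estrogen response elements gave 1 call of 31 in EAAE, and it was Ramp2, which fell in WT. In WT 19 of them were called higher and 5 lower. Over those 19 the median was 2.66 in WT and 0.06 in EAAE, and 16 of the responses differed. Ramp3, a direct target, read -1.95, -1.68 and -1.64 in EAAE saline and -1.54, -1.57 and -1.38 in EAAE E2. All treated mice were above all saline mice, yet the difference of 0.26 (interval 0.03 to 0.49, adjusted p = 0.248) missed the threshold, against 4.72 in WT. Greb1, a receptor coactivator and target, was well above background on no EAAE array, against a WT rise of 3.78. The progesterone receptor Pgr read -1.76, -1.84 and -1.96 and -1.14, -1.09 and -2.18, with EAAE E2 3 the lowest of the 6. Its difference was 0.38 (interval -0.15 to 0.92, adjusted p = 0.461), against 1.94 in WT. Txnip, a redox regulator that E2 lowers in WT (by 2.24), read 5.71, 5.38 and 5.65 and 5.14, 5.0 and 5.24. The groups lay apart and the difference was -0.45 (interval -0.79 to -0.11, adjusted p = 0.182). Txnip's response differed from that of WT by 1.79 (adjusted p = 1.77e-04).

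Growth machinery that E2 raised in WT gave fewer calls in EAAE than in WT. Of 41 ribosome biogenesis genes 36 were called higher in WT and 1 in EAAE, the assembly factor Grwd1 (0.47, adjusted p = 0.0366, against 1.75 in WT). The EAAE median was 0.16, 87.8% of members had a positive difference, and 30 of the 36 responses differed. At an unadjusted p under 0.05, 14 of the 41 were higher and 0 lower in EAAE, against 16.1% of all genes in either direction. Of 41 unfolded protein and heat shock genes 29 were called higher in WT. The inducible chaperone Hspa1a was the 1 call in EAAE and fell by 0.82, from 3.88, 3.62 and 3.57 to 2.51, 2.83 and 3.28 (adjusted p = 0.0493). Hspa1b, a near copy, may share its signal. Cell cycle entry genes held 3 called lower of 33: the cyclin-dependent kinase inhibitor Cdkn1c (-0.69), and also Sertad3 (-0.70) and Sertad4 (-1.21). Their adjusted p were 0.0489, 0.0426 and 0.00626. Of 42 DNA replication and mitosis genes 0 were called by limma in EAAE, with 3 higher and 1 lower at an unadjusted p under 0.05. The replication helicase subunit Mcm6 read 0.21 (adjusted p = 0.18). Cdc6, which loads that helicase, was well above background on all EAAE saline arrays and on no E2 array, and its other probe read 0.14. In fuel use, the oxygen-regulated transcription factor Hif1a rose by 0.55 and the mitochondrial coactivator Ppargc1b fell by 0.78 (adjusted p = 0.0247 and 0.00587). The fatty acid elongase Elovl5 rose by 0.64 (adjusted p = 0.022). Of 30 epithelial transport genes 0 were called by limma, with 5 higher and 2 lower at an unadjusted p under 0.05. The water channel Aqp5 read 0.42, 0.44 and -1.21 in EAAE saline and -1.74, -1.92 and -1.62 in EAAE E2, lower in all treated mice. Its difference was -1.65 (adjusted p = 0.0608), against 3.67 in WT, and the responses differed by -5.32 (adjusted p = 5.12e-05).

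Other large changes with a gene symbol follow. Higher were the microtubule protein Saxo1 (1.70, adjusted p = 0.0401), carbonic anhydrase Car2 (1.44, 0.0399), the gut and brain peptide Cck (1.44, 0.0454), the histamine receptor Hrh3 (1.39, 0.0343), Ch25h, which makes an oxysterol (1.38, 0.0246), Srpx2 (1.37, 0.0114), the myeloid kinase Fgr (1.36, 0.0445) and keratin Krt20 (1.35, 0.0287). Lower were myeloperoxidase Mpo (-2.66, adjusted p = 0.0371), Ccdc69 (-1.46, 0.00155), the Nogo receptor Rtn4r (-1.43, 0.0454), the ATP receptor P2rx5 (-1.17, 0.0367) and the TWEAK receptor Tnfrsf12a (-0.99, 0.039). The other probe of Ccdc69 gave -0.37. Mpo read -1.49, -1.68 and -1.48 in EAAE saline and -4.04, -3.48 and -5.08 in EAAE E2, while the WT mice read -3.92, -3.21 and -4.18 in saline and -3.40, -2.51 and -4.52 after E2. The EAAE saline mice were thus the high group for this neutrophil enzyme, and granulocyte and mast cell markers as a sum overlapped (2.71 to 3.67 in saline, 2.36 to 3.02 after E2). Nipal4 was well above background in all EAAE saline mice and in no EAAE E2 mouse, and was at least 3-fold lower (adjusted p = 7.62e-04). Its other probe gave -0.24. Tnfrsf12a went from 0.12, -0.02 and -0.11 to -0.86, -1.07 and -1.03 in EAAE and rose by 3.97 in WT, a response difference of -4.96 (adjusted p = 1.35e-06). The uncharacterized transcript A230051N06Rik was well above background on all E2 arrays and no saline array of EAAE, at least 7.7-fold higher. It passed the filter on dim probes only through that group, so it had to differ and its p is not given. In WT it was well above background on 1 saline array and no E2 array. Families counted by symbol gave 2 higher and 1 lower of 300 solute carriers, 0 and 1 (Zfp644) of 354 C2H2 zinc finger genes and 0 and 2 (Kcne4 and Kcnh2) of 60 potassium channel subunits. By limma 0 of 90 ribosomal proteins and 0 of 48 cytochromes P450 were called, with 2 and 0, and 3 and 1, higher and lower at an unadjusted p under 0.05.

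Setting the 271 genes beside their WT response gave 3 kinds of gene. The WT response rests on other mice but shares the fit's estimate of the spread, so the calls are not independent. Of the 133 risen in EAAE, 40 (30.1%) rose in WT, 63 (47.4%) fell in WT and 30 (22.6%) were not called there. Of the 138 fallen, 44 (31.9%) fell in WT, 46 (33.3%) rose and 48 (34.8%) were not called. Over all tested genes 19.5% rose and 29.9% fell in WT. The 40 are 1.06% of the genes that rose in WT and the 44 are 0.762% of those that fell. The 109 opposite genes are 1.09% of the genes that fell in WT (63) and 1.22% of those that rose (46). Over all tested genes 0.689% were called higher and 0.715% lower in EAAE. The response difference passed the test for 195 of the 271, against 37.5% of all genes. The 271 were selected on the EAAE difference, which is part of the response difference, so the higher share follows in part from that selection. The same holds where response differences are counted among genes called in WT. The test passed for all 109 opposite genes, which had to pass since called changes of opposite sign add up in it. It passed for 26 of the 84 with the same direction. For the other 58 the difference was not called.

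**Figure D3:**
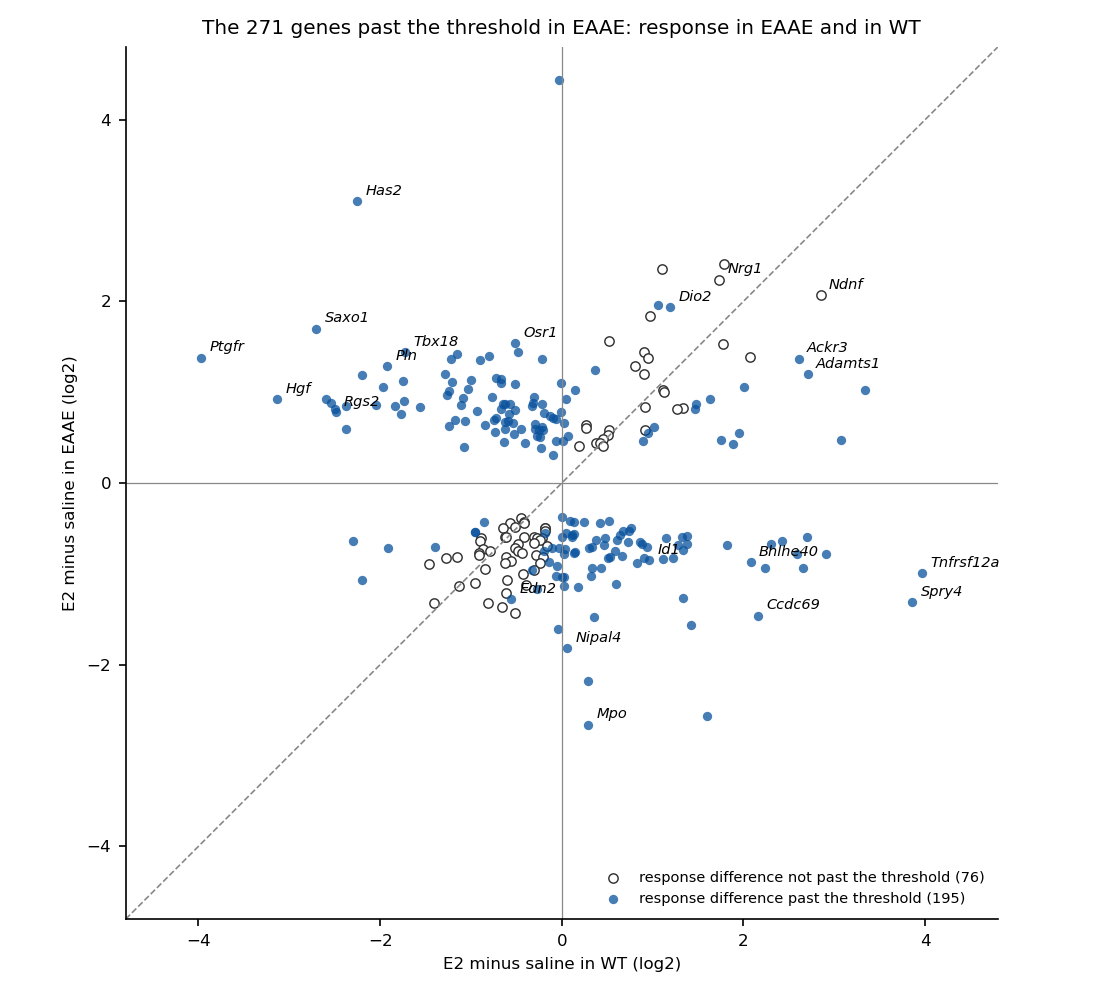
E2 minus saline in EAAE (vertical axis, log2) against E2 minus saline in WT (horizontal axis, log2) for the 271 genes past the threshold in EAAE; the dashed line marks equal responses. Open points (76) are genes whose response difference did not pass the test, and filled points (195) are those where it passed, among them Has2 and Ptgfr at upper left and Spry4 and Tnfrsf12a at lower right.

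Genes with the same direction in both genotypes and no called difference included Nrg1, Ndnf, Slc6a2, Nog, Adamts9 and the Wnt-pathway relative Dkkl1 among the risen. Their intervals of the difference were wide: -1.01 to -0.03 for Adamts9 and -0.67 to 0.48 for Dkkl1. That of Adamts9 left out 0, on the side of a smaller rise in EAAE (0.83 against 1.34 in WT). The limma test of this difference gave an adjusted p of 0.089. Among the fallen were the secretory GTPase Rab27b (-1.10 in EAAE, -0.95 in WT, interval of the difference -0.87 to 0.56), the actin regulator Mtss2 (-1.0 and -0.43) and cadherin Cdh4 (-0.59 and -0.61). The other probe of Cdh4 read 0.38 in EAAE, the opposite sign. Called in the same direction but smaller in EAAE were Adamts1, Ackr3, the chemokine scavenger Ackr2 (1.06 against 2.01) and Aldh1a2 (0.55 against 1.95). Among genes not called in WT, Atxn7 fell from 0.18, 0.29 and 0.19 to -0.63, -0.61 and -0.83 in EAAE (difference -0.91, adjusted p = 0.00195) and read -0.05 in WT. The vessel guidance receptors Plxna2 and Unc5b moved oppositely in EAAE, by 0.87 and -0.94 (adjusted p = 0.0257 and 0.0431). For both the WT values of -0.22 and 0.43 missed the threshold.

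The starting point differed between genotypes for part of these genes, which is given as the level in saline. Has2 was -0.86 (EAAE minus WT in saline, adjusted p = 0.00894), Dio2 -2.77 (adjusted p = 1.65e-06), Sox4 -1.81 (adjusted p = 1.75e-05) and Cemip -1.74 (adjusted p = 1.15e-04), all lower in EAAE. Osr1 was 0.49 (adjusted p = 0.00195), Id3 0.77 (adjusted p = 1.89e-04) and Avpr1a 1.30 (adjusted p = 5.45e-05), all higher. Ptgfr and Pln started at levels whose differences, -0.26 and -0.14, did not pass the test. These saline mice are the same as in the responses, so the values stand side by side only.

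Among markers of the cell types a uterus can hold, some lists had medians well off the 0.03 of all genes. Of 14 lists, 10 had 0 calls by limma. The other 4 had 1 call each: Hand2 of 16 tested, Pln of 15, Sox17 of 20 and Mpo of 13. Over all genes 1.4% were called, and at that share lists this short hold few calls. Macrophage and monocyte markers had 0 of 22 called (0 also at an unadjusted p under 0.05) and a median of 0.55, with 90.9% positive. They summed to 6.06, 5.71 and 5.56 in EAAE saline and 7.45, 5.61 and 6.46 in EAAE E2. The groups overlapped, EAAE E2 1 was the highest and EAAE E2 2 lay within the saline range. Lymphocyte and natural killer markers, 0 of 20 called (4 higher, unadjusted) with a median of 0.36 and 90.0% positive, summed to 2.05 to 2.23 in saline and 2.29 to 2.91 after E2. Erythroid markers, 83.3% positive and 0 of 6 called (1 lower, unadjusted) with a median of 0.79, spread from 3.88 to 5.41 in saline and 4.69 to 6.59 after E2. Adipocyte markers spread from 5.99 to 8.07 and 6.52 to 8.48. The part of blood and fat in the results was not tested.

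**Figure D4:**
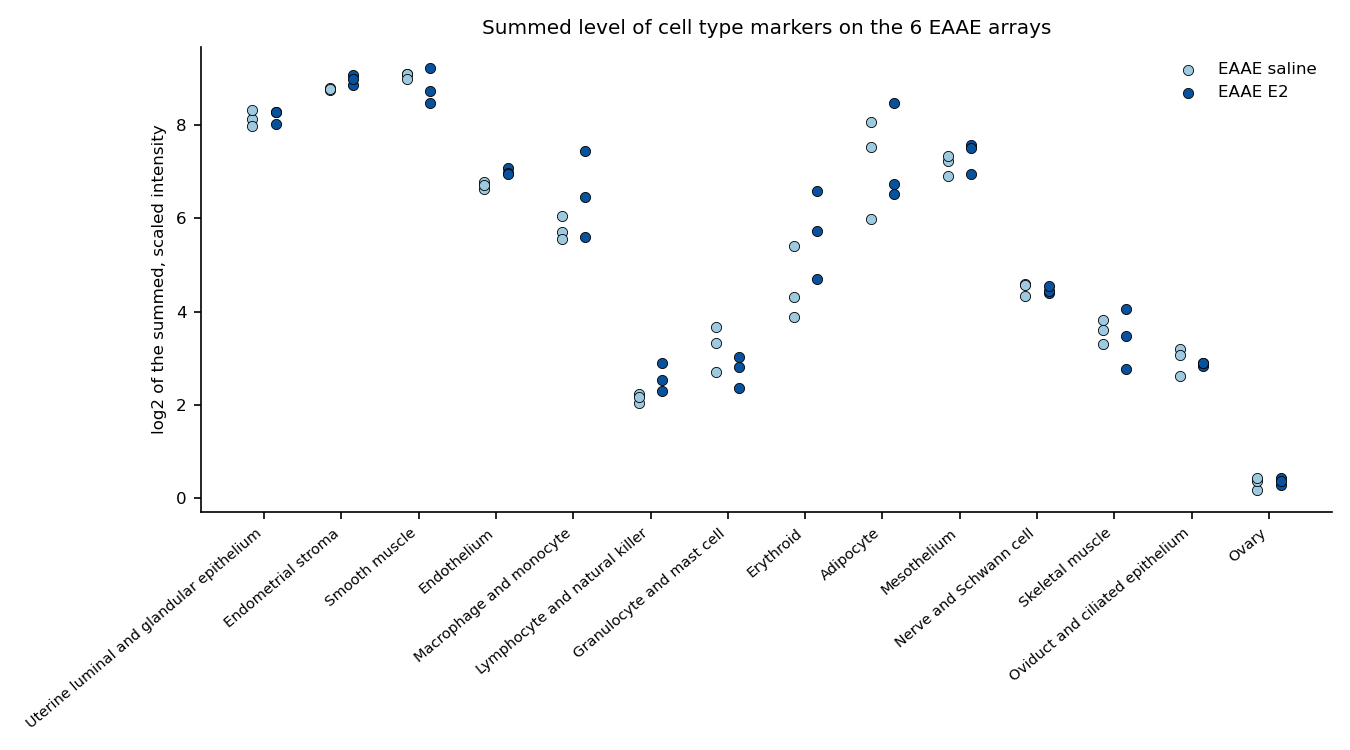
Summed level of the tested markers of 14 cell types (horizontal axis) on each of the 6 EAAE arrays (vertical axis, log2 of the summed intensity over the array's 75th percentile; points are mice). Endothelium, endometrial stroma and lymphocyte points lie apart between saline and E2, by under 1 unit, and macrophage, erythroid and adipocyte points spread widely within a group.

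Other probes of the called genes gave a check on the same mice. Of 133 such probes for 96 genes, 122 (91.7%) had the sign of the gene's main probe, 38 of these past the threshold over all probes, and 0 passed it with the opposite sign. Within slide 1, which held EAAE saline 2 and EAAE E2 1, Has2 differed by 3.39 and within slide 2 by 3.38. The within-slide values were 1.42 and 1.68 for Osr1, 1.77 and 2.12 for Dio2, -1.16 and -0.97 for Id3, -1.29 and -1.35 for Edn2 and -0.76 and -0.90 for Bhlhe40. Nrg1 gave 2.69 and 2.55, above its pooled value. Each within-slide value rests on 1 E2 mouse at position 4.

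EAAE E2 3 was most often the E2 array nearest to saline, for 65 of the 133 risen genes (48.9%) and 69 of the 138 fallen genes (50%). It was the E2 array that shared no slide with EAAE saline.

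The number of calls rested on several choices, which the plot of calls by setting shows. Fitting the 6 EAAE arrays alone, with 4 residual degrees of freedom in place of 8, left 5 higher and 2 lower genes: Has2, Osr1, Dio2, Ptgfr, Gdf6, Nipal4 and Edn2. A linear term for slide position left 12 and 12. Only EAAE E2 arrays lay at position 4, so this term extends a slope from the other positions. It cannot take out an effect of position 4 itself. Slide with position left 4 and 3: Has2, Osr1, Avpr1a and Gdf6 higher, and Nipal4, Crabp2 and the transcript AK087779 lower. Has2 and Osr1 were called under all 24 settings, none of which separates position 4 from E2 treatment in EAAE. Under every setting all called genes that were tested kept their direction. Leaving out an array could not change a direction, since the EAAE groups lay apart in all called genes. WT arrays do not enter the EAAE difference, and the series table holds the same values. Of the 107 named genes that were called, 28 kept their call whichever array was left out: Has2, Cemip, Osr1, Adamts1, Lama1, Srpx2, Ndnf, Dio2, Avpr1a, Pln, Ramp2, Slc6a2, Slc10a4, Gdf6, A230051N06Rik and C630043F03Rik among the higher, and Id3, Edn2, Bhlhe40, Klf10, Ccdc69, Nipal4, Sertad4, Usp2, Atxn7, Ppargc1b, Slc8b1 and LOC676452 among the lower. A230051N06Rik and Slc10a4 passed the filter on dim probes only through the EAAE E2 group. The other 79 lost it without at least 1 array. Leaving out an array cost 75 of the 107 calls without EAAE saline 2, 71 without EAAE E2 2, 66 without EAAE saline 1 or EAAE E2 1, 65 without EAAE saline 3 and 24 without EAAE E2 3. Leaving out a WT array cost 51 without WT E2 1, 47 without WT saline 2, 43 without WT E2 3, 35 without WT saline 1, 32 without WT saline 3 and 30 without WT E2 2.

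**Figure D5:**
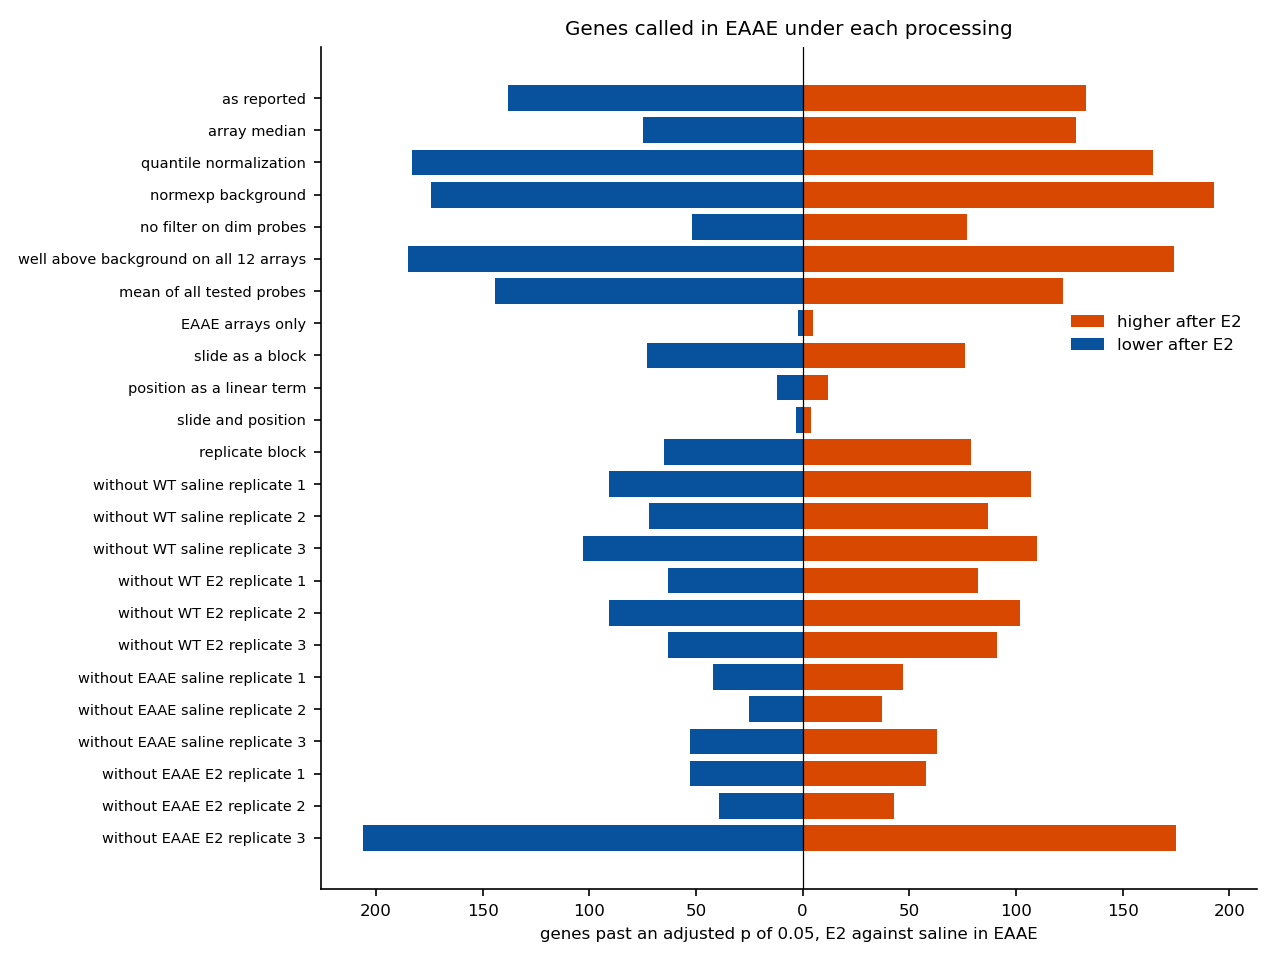
Genes past an adjusted p of 0.05 for E2 against saline in EAAE (horizontal axis, number of genes, lower to the left and higher to the right) under each processing setting (vertical axis). The counts of 133 and 138 as reported fall to 5 and 2 when the WT arrays are not used to estimate the spread, and are 175 and 206 without EAAE E2 replicate 3.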

How the data were processed

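Per the file headers, the authors scanned 12 single-colour arrays and read the spots with Agilent Feature Extraction, version 9.5.3.1 (the submitters' processing notes name 9.5). Its processed signal, as deposited, is a linear intensity with spatial and multiplicative trends removed within the array and surrogates for dim spots, per the file headers. The deposited value table of the series held the same intensity at every one of 45018 spots, to a relative tolerance of 1e-06 (column medians 147.7 to 225.4). So it carries no scaling or centring beyond that, and no direction.

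Control spots and 1 to 16 outlier spots per array were left out, and 3 to 5 saturated spots kept. Median intensity was 162.5 to 249.5 per array. Precision is limited by the number of mice. Spots of a probe were averaged, log2 was taken and the array's 75th percentile subtracted. Kept were 29017 of 41174 probes, those well above background in every array of some group, and the brightest probe stood for each of 19304 genes. Names were matched to a RefSeq table (GRCm38.p6) by accession for 22951 and 124 probes, by symbol for 6582 and by synonym for 3077, 8155 kept the name in the file, and 285 stayed unnamed. Probe coordinates are on mm7, as in the files. limma 3.58.1 (lmFit, eBayes, R 4.3.3) fitted all 12 arrays. Tests were 2-sided, and p-values were adjusted over all genes by Benjamini-Hochberg, with a threshold of 0.05. Summaries and plots used Python 3.11.15 (numpy 2.4.6, pandas 2.3.3, matplotlib 3.10.9). P-values measure only the spread between these mice. Where the dimmer group was not well above background on any array, "at least N-fold" sets the brighter group's mean against the dimmer group's mean of the probe's value or the array's dimmest value well above background, whichever was higher (-5.80 to -5.26 on the EAAE arrays).

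The 60 lists were written from general knowledge, but with earlier results of these data known. Some of their members and the rule for named genes were also chosen with those results known. Genes may stand in several lists. Named were the 20 largest rises and falls with a symbol, a measured higher group and groups apart, called members of each list (or its 2 smallest p), up to 4 per family, the 10 genes with the largest common change in WT in each of the same and opposite directions, and Esr1, Pgr, Greb1, Igf1, Klf4, Klf15, Fos, Ramp3 and Txnip. The fit was run on simulated data with independent noise and no slide or position effect. That run cannot speak to the array layout. Alternatives were 24: scaling, background, filter, probe rule, arrays in the fit, slide, position, replicate block, the series table and leaving out each array. Deposited intensity values and log2 values derived from them are the only units used.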

Additional observations from a re-analysis of the deposited data

Results flagged for a closer look

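For 85 named genes called in EAAE the response to E2 differed between genotypes by the limma test of the interaction (EAAE minus WT, adjusted p under 0.05). The value after each name is that difference on the log2 scale. Genes called in opposite directions in EAAE and WT had to pass that test.

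Among genes that rose in EAAE, 27 had fallen in WT, and the response differences were Ptgfr 5.35, Has2 5.34, Saxo1 4.40, Hgf 4.05, Cldn1 3.51, Rorb 3.42, Sox4 3.31, Rgs2 3.27, Sox11 3.23, Pln 3.21, Tbx18 3.17, 3110045C21Rik 2.98, C630043F03Rik 2.69, Srpx2 2.59, Cemip 2.57, Dkk2 2.53, Avpr1a 2.48, Krt20 2.25, Lama1 2.20, Adamts6 2.13, Osr1 2.05, Osr2 1.87, Hand2 1.86, Sfrp4 1.53, Sox17 1.48, Ramp2 1.31 and Hoxd9 1.04. A further 10 had not been called in WT, with A230051N06Rik 4.47, Car2 1.92, Fgr 1.58, Plxna2 1.09, Mt1 0.97, Wnt2 0.87, Ednra 0.79, Mt2 0.77, Col22a1 0.63 and Cxcl12 0.45. The 9 that rose in both genotypes gave Adamts1 -1.51, Aldh1a2 -1.39, Grwd1 -1.28, Ackr3 -1.23, Ackr2 -0.96, Gdf6 0.89, Slc10a4 0.87, Dio2 0.75 and Hif1a -0.40, where a negative value means a smaller rise in EAAE.

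Among genes that fell in EAAE, 17 had risen in WT, with Spry4 -5.17, Tnfrsf12a -4.96, Klk1b11 -4.16, Ccdc69 -3.62, Bhlhe40 -2.95, Ttc21b -2.60, Per2 -2.08, Notch1 -1.96, Id1 -1.81, Hspa1a -1.72, Tmem8b -1.71, Klf10 -1.71, Ier5 -1.55, Smad6 -1.34, Dusp7 -1.20, Tgfa -1.09 and Fbxw7 -0.66. The 20 not called in WT gave Mpo -2.95, Crabp2 -2.47, Nipal4 -1.88, Unc5b -1.37, Ier5l -1.34, Usp2 -1.15, Irf2bpl -1.06, Dusp10 -1.04, Sertad3 -1.03, P2rx5 -0.90, Atxn7 -0.85, Ppargc1b -0.80, Zfp644 -0.77, LOC676452 -0.73, Kcne4 -0.70, Tcf7 -0.69, Clcf1 -0.60, Klf3 -0.59, Cldnd1 -0.57 and Slc8b1 -0.37. The 2 that fell in both gave Edn2 -0.72 and Id3 -0.63, a larger fall in EAAE for each.

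Some of these differences involve a group in which no array was well above background, so their size is not fully measured: 3110045C21Rik, A230051N06Rik, Crabp2, Gdf6, Klk1b11, LOC676452, Nipal4, Spry4, Tbx18, Tmem8b and Ttc21b. A230051N06Rik and Slc10a4 passed the filter on dim probes only through the EAAE E2 group. The filter favoured their calls, so these are no evidence of a difference between the responses.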

How the results depend on the processing

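Counts are given as genes higher, genes lower, genes with a called response difference and genes in the same direction as WT, which were 133, 138, 195 and 84 as reported. The array median gave 75 lower. Without a filter on dim probes, where more genes were tested, the counts were 77, 52, 97 and 43. Slide as a block gave 76, 73, 122 and 30, position as a linear term 12, 12, 22 and 7, and slide with position 4, 3, 6 and 2. The position term cannot take out an effect of the position that only EAAE E2 arrays held. The 6 EAAE arrays alone gave 5 and 2 with fewer degrees of freedom, at 2137 genes with an unadjusted p under 0.05. The replicate block gave 79, 65, 108 and 50. Deviations of same-numbered EAAE mice correlated at -0.28 to 0.19 (3 pairs), and those of EAAE mice on the same slide at 0.02 to 0.26 (3 pairs). So few pairs cannot tell whether the labels' numbers pair the mice. Quantile scaling (164 and 183), normexp (193 and 174), probes above background on all 12 arrays (174 and 185), the mean of all probes (122 and 144) and the series table (133 and 138) stayed within 1.5 times.

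Leaving out 1 array gave 37 to 175 higher, 25 to 206 lower, 52 to 284 response differences and 17 to 125 in the same direction. Omitting EAAE saline 2 left 37 higher and 25 lower, omitting EAAE E2 2 left 43 and 39, EAAE saline 1 left 47 and 42, EAAE E2 1 left 58 and 53, and EAAE saline 3 left 63 and 53. Omitting EAAE E2 3 gave 175 and 206, both within 1.5 times. Of the WT arrays, omitting E2 1 left 82 and 63, saline 2 left 87 and 72, E2 3 left 91 and 63, saline 1 left 107 and 91, and E2 2 left 102 and 91. No called named gene changed sign under any alternative, and leaving out an array could not change one, since the EAAE groups lay apart. Of the named genes not called, Snap25, above background on no EAAE array, read -0.47 as reported and 0.15 with position as a linear term. Of 60 list medians, 33 kept their sign throughout. Causes of the moves were not tested, except that a fit on fewer arrays has fewer degrees of freedom. Signal near background limits the dimmest genes: 6 called genes were above it on no EAAE array.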
